A study of Mus musculus with 43 samples.

Results

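Microglia are the resident macrophages of the brain, and the genes described here are 31 genes that mark them. They were taken by symbol from the 56980 genes of the count table. They fall into 10 homeostatic genes, which microglia express at rest in the brain (P2ry12, P2ry13, P2ry6, Gpr34, Csf1r, Cx3cr1, Siglech, Selplg, Tmem119 and Olfml3), and 21 general myeloid genes, which other macrophages and blood myeloid cells express as well. RNA was measured by sequencing in 43 libraries of GFP+ cells sorted from the somatosensory cortex of female and male mice of strain C57BL/6JRccHsd. The labels call these cells L2/3 excitatory neurons, so the microglia genes are genes of another cell type than the one named by the labels.

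All mice were electroporated in utero with a GFP plasmid, and the green cells were sorted after dissociation of the fluorescent cortex. At E19 there were 4 libraries per sex of WT, of Cux1 KO (the germline ΔC/ΔC genotype) and of Cux2 KO (germline Cux2-/-) mice. At P4 there were 3 per sex of WT and of Cux2 KO mice, and 2 of Cux1 KO males. These last libraries came from mice with a floxed and a deleted Cux1 allele that received a CRE plasmid beside a GFP plasmid, so the gene was disrupted in the electroporated cells, and cells that took up no plasmid kept the floxed allele. No WT library received CRE according to the study's methods. At P7 there were 2 female and 3 male WT libraries. WT libraries of a stage serve as the controls of both mutants, so the Cux1 KO and Cux2 KO comparisons of a stage share them. The E19 libraries were sequenced in one round and the P4 and P7 libraries in another, so that E19 against P4 cannot be told apart from the round. Nothing in the labels says that libraries of a group came from separate animals, so p-values measure the spread between these libraries, which may be technical in part.

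Microglia arise from yolk sac progenitors that enter the embryonic brain and spread through the cortex before and after birth, and they are not descendants of the cortical progenitors that electroporation reaches. They depend on signals through the receptor encoded by Csf1r, patrol the tissue with motile processes, sense nucleotides through P2Y receptors and chemokine from neurons through the receptor encoded by Cx3cr1, and take up debris and synapses with the help of complement. Their early postnatal maturation is known for a rise of homeostatic genes, while lysosomal genes are prominent in the rounded, phagocytic cells of the embryo.

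A library held 13321100 to 20715730 counts at E19, 19499120 to 60559580 at P4 and 15312030 to 27633830 at P7. All levels are CPM, counts scaled to library size with TMM normalization, and a fold change is edgeR's log2 ratio. Of 12 markers of excitatory neurons, all had a lower median at P4 and at P7 than at E19, though to different degrees. Neurod2, a transcription factor of cortical excitatory neurons, had a median of 668 CPM over the 24 E19 libraries, 21.3 CPM over the 14 P4 libraries and 6.22 CPM over the 5 P7 libraries. Tubb3, a tubulin of neurons in general, had medians of 1444, 496 and 259 CPM. Slc17a7, a vesicular glutamate transporter of excitatory neurons, had a median of 11.1 CPM at E19 and was at or under 3 counts in 6 of the 14 P4 libraries and in 1 of the 5 P7 libraries. Of 8 markers of astrocytes and radial glia, 7 had a higher median at P4 and at P7 than at E19. Gja1, the main gap junction protein of astrocytes, had medians of 24.7, 861 and 1986 CPM, and the exception was Fabp7, a lipid-binding protein of radial glia, with 578, 23.8 and 28.2 CPM. Counts are summed over each whole gene and do not read the deleted parts apart. Cux1 overlapped between Cux1 KO and WT libraries in males at E19 (310 to 378 against 312 to 468 CPM) and at P4 (83.3 and 168 against 88.1 to 157 CPM), and these levels check the genotype labels only weakly.

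The summed level of the 31 genes was higher in WT at P7 than in WT at the earlier stages. The sum covers these genes only, and the share of microglial RNA in a library was not estimated. The sum lay between 106 and 219 CPM in the 24 E19 libraries. In WT at P4 it was 151, 168 and 139 CPM in females and 115, 92.0 and 203 CPM in males, within or below the range at E19. In WT at P7 it was 721 and 2787 CPM in females and 503, 746 and 1022 CPM in males, so every P7 library was above every WT library of the earlier stages. In bulk RNA, fewer microglia and less RNA of these genes per microglial cell cannot be told apart. The female P7 library of replicate 2 stood apart at 2787 CPM. Numbers of genes called or at an unadjusted p under 0.05 at P7 are also given without it. The levels and fold changes given for P7 include it.

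**Figure D1:**
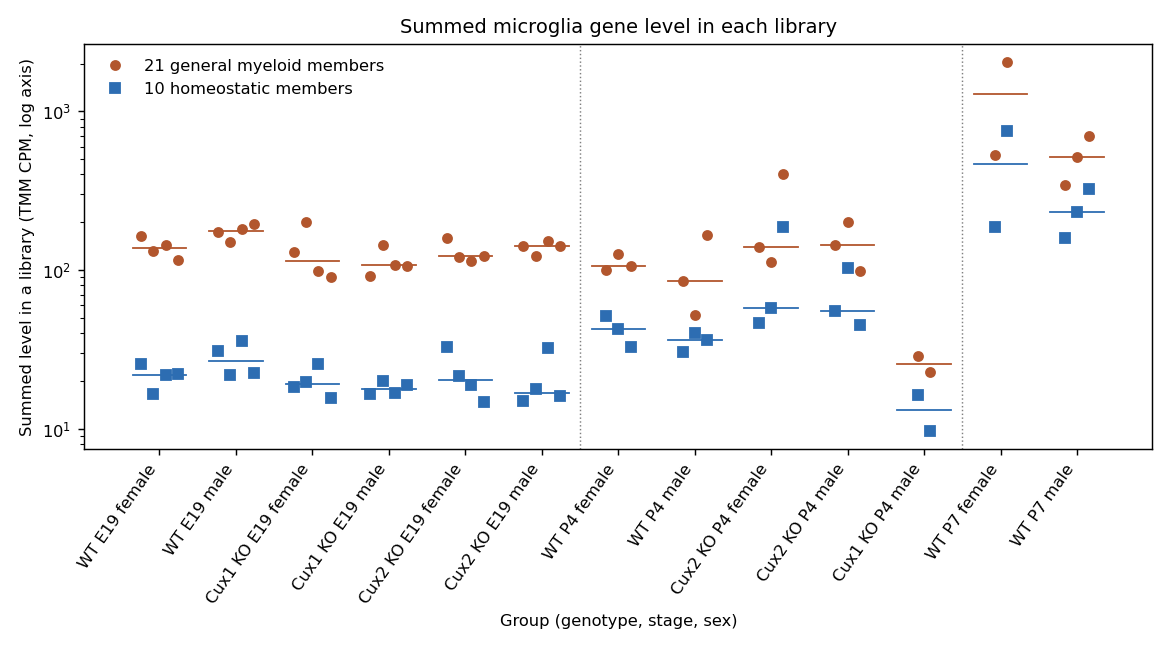
Summed level of the 10 homeostatic and of the 21 general myeloid genes (CPM, log axis) in each of the 43 libraries by genotype, stage and sex; points are libraries and lines are group medians. The P7 libraries are the highest of the WT libraries in both groups of genes, and the 2 Cux1 KO libraries of P4 are the lowest of all in the general myeloid genes (28.5 and 22.7 CPM), while in the homeostatic genes one of them (16.4 CPM) lies within the E19 range (14.8 to 35.5 CPM).

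Per kilobase of exon, the order of the genes shifted between stages. The lengths join all annotated exons of a gene and can exceed those of the transcripts present, so the order depends on them. Without this scaling the median of Ctss (25.3 CPM) was above that of Cd68 (20.4 CPM) in WT at E19. In WT at E19 the highest median levels were those of Cd68 (14.9 CPM per kb), a lysosomal glycoprotein of phagocytes, C1qa (9.75), Tyrobp (4.92), Ctss (4.77) and C1qc (4.14). In WT at P4 Fcer1g (5.58 CPM per kb) and Tyrobp (3.70) were first, followed by C1qa (3.62), C1qc (3.39), Cd68 (3.28), Ctss (3.23) and P2ry12 (2.55). In WT at P7 the order was Tyrobp (32.7 CPM per kb), C1qc (30.5), Fcer1g (28.3), C1qa (21.6), Cd68 (16.2), Ctss (14.9) and P2ry12 (14.6). P2ry12 had rank 20 of the 31 genes at E19 and rank 7 at both later stages. The lowest were Siglech at E19 (0.0207 CPM per kb), Csf3r and Itgam at P4 (both with a median of 0) and Gpnmb at P7 (0.0757). Neighbours in these orders mostly cannot be ranked against each other, because the coefficient of variation between libraries of a group had a median over the genes of 32.2% to 49.9% in the 6 E19 groups, 42.9% for WT females and 78.7% for WT males at P4, and 85.5% for WT females and 34.9% for WT males at P7.

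**Figure D2:**
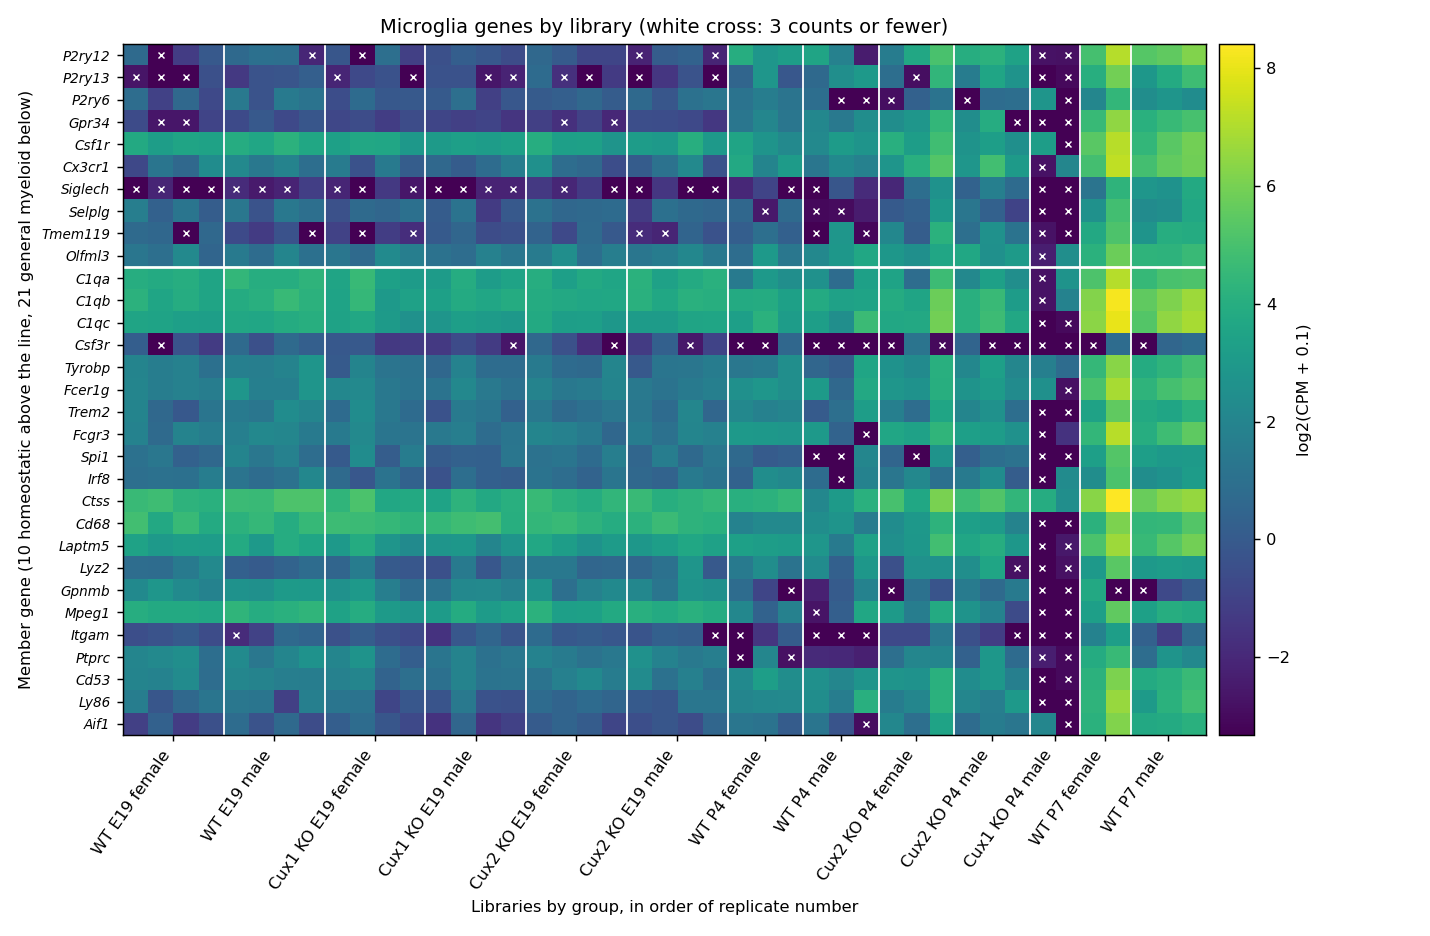
Level of each of the 31 genes, log2(CPM + 0.1), in each of the 43 libraries, with libraries in columns grouped by genotype, stage and sex and genes in rows, the homeostatic genes set off by a line; a white cross marks a library with at most 3 counts of the gene. The crosses crowd in the 2 Cux1 KO libraries of P4 (25 and 23 of the 31 genes), while E19 libraries have 0 to 5 and P7 libraries 0 to 2.

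The comparison within one sequencing round, WT at P4 against WT at P7 with sex as a covariate, asks how the genes change as the postnatal cortex matures. Of the 31 genes, 20 were called higher at P7 (adjusted p under 0.05 and a log2 fold change over 1, edgeR's quasi-likelihood test), and none was called lower, where 2.29% of the 20936 genes tested were called in either direction and 1.6% were called higher. All 31 log2 fold changes were above 0, with a median of 3.10 beside 0.013 over all genes tested. The P7 libraries lay above all P4 libraries for 22 genes, where this held for 4.34% of all genes. Of the 10 homeostatic genes 7 rose, with a median of 3.22, and of the 21 general myeloid genes 13 rose, with a median of 2.94.

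**Figure D3:**
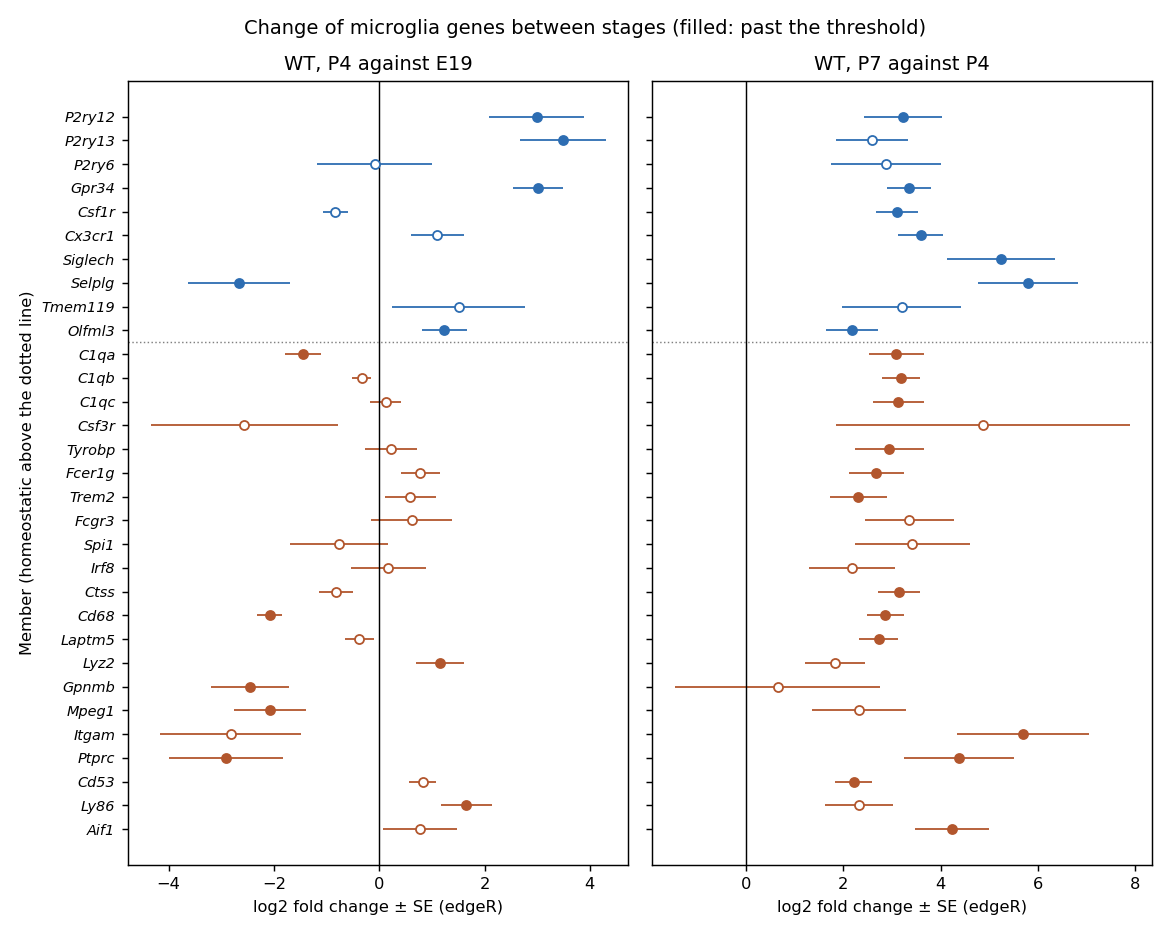
Log2 fold change with its standard error for each of the 31 genes in WT, from E19 to P4 and from P4 to P7, by role; filled points passed the threshold and open points did not. All 31 points from P4 to P7 lie above 0, while from E19 to P4 the 30 genes tested lie on both sides, with 6 called higher and 6 called lower.

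The 3 chains of complement C1q, the recognition molecule of the classical complement pathway, are encoded side by side on the minus strand of chromosome 4 (GRCm39), with C1qb at 136606009 to 136613511, C1qc at 136616466 to 136620376 and C1qa at 136623223 to 136626161. At P4 C1qb was at 14.4, 14.7 and 10.1 CPM in the WT female libraries and at 14.2, 10.5 and 11.2 CPM in the WT male ones. At P7 it was at 75.0 and 309 CPM in females and at 47.3, 69.9 and 104 CPM in males. Every P7 library was above every P4 library, and C1qb rose by a log2 fold change of 3.19 (SE 0.397, adjusted p = 0.00424). C1qa rose by 3.09 (SE 0.564, adjusted p = 0.0137) and C1qc by 3.13 (SE 0.514, adjusted p = 0.00963), so the fold changes of the 3 chains differed by less than their standard errors.

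Among the receptors for nucleotides and lipids, P2ry12, which steers microglial processes towards ATP, was at 16.0, 7.14 and 9.24 CPM in females and 11.5, 3.42 and 0.0877 CPM in males at P4. At P7 P2ry12 was at 31 and 140 CPM in females and 39.6, 47.0 and 73.5 CPM in males. The groups do not overlap, but the low male library of replicate 3 at P4, with 6 counts, widens the spread, and the log2 fold change was 3.23 (SE 0.796, adjusted p = 0.0402). Gpr34, a receptor for lysophosphatidylserine, was at 2.34, 4.08 and 2.31 CPM in females and 4.21, 2.56 and 5.33 CPM in males at P4, and at 24.3 and 89.6 CPM in females and 17.2, 23.7 and 31.7 CPM in males at P7. It rose by 3.35 (SE 0.46, adjusted p = 0.00545). P2ry13, which lies beside P2ry12 on chromosome 3, and P2ry6, the receptor for UDP, did not pass the threshold, and their levels in WT at P7 were 7.28 to 59.5 CPM and 4.02 to 21.9 CPM.

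Csf1r, the receptor for the survival factors CSF1 and IL-34, and Cx3cr1, the fractalkine receptor, both rose. Csf1r was at 11.5, 6.62 and 4.53 CPM in females and 4.5, 8.66 and 6.58 CPM in males at P4 and at 42.3 and 144 CPM in females and 21.6, 43.1 and 61.1 CPM in males at P7, a log2 fold change of 3.10 (SE 0.428, adjusted p = 0.00545). Cx3cr1 was at 13.3, 3.81 and 8.66 CPM in females and 2.32, 4.69 and 3.49 CPM in males at P4 and at 30.2 and 157 CPM in females and 30.1, 48.6 and 58.9 CPM in males at P7, a log2 fold change of 3.59 (SE 0.465, adjusted p = 0.00495). The stages do not overlap for either gene. In Csf1r, 19.8% of the exon bases overlap Hmgxb3 on the opposite strand, and since the strand setting of the counting is not given, reads there cannot be assigned to one of the genes. Csf3r, the receptor for G-CSF and a gene of granulocytes as well as microglia, was between 0 and 1.70 CPM in all WT libraries of P4 and P7 and was not called.

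Tyrobp and Fcer1g encode the adaptors through which many myeloid surface receptors signal, Trem2 encodes a lipid-sensing receptor that uses the first of them, and Siglech a sialic acid receptor that uses it too. All 4 rose from P4 to P7, Tyrobp by 2.94 (SE 0.708, adjusted p = 0.0365), Fcer1g by 2.68 (SE 0.568, adjusted p = 0.0227), Trem2 by 2.31 (SE 0.583, adjusted p = 0.0434) and Siglech by 5.25 (SE 1.11, adjusted p = 0.0227). Siglech was at 0.144, 0.423 and 0 CPM in females and 0, 0.785 and 0.175 CPM in males at P4, against 2.18 and 19.9 CPM in females and 7.06, 6.27 and 14.1 CPM in males at P7. The size of its change rests on P4 levels near the detection limit. The low-affinity IgG receptor gene Fcgr3 (16.0 to 142 CPM at P7) and the factors Spi1, which encodes PU.1 (8.17 to 38.3 CPM at P7), and Irf8, which works with it (5.28 to 34.4 CPM at P7), did not pass the threshold.

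Of the genes of lysosomes and endosomes, Ctss, a protease that trims antigen-loading complexes, was at 16.9, 18.3 and 22.3 CPM in females and 4.28, 8.43 and 17.4 CPM in males at P4. At P7 Ctss was at 79.2 and 341 CPM in females and 52.9, 77.4 and 92.8 CPM in males, above every P4 library, and it rose by 3.14 (SE 0.431, adjusted p = 0.00545). Cd68 rose by 2.86 (SE 0.38, adjusted p = 0.00526) and Laptm5, a lysosomal membrane protein of blood cells, by 2.73 (SE 0.396, adjusted p = 0.00623). Lyz2, the macrophage lysozyme, Mpeg1, the pore-forming perforin-2, and Gpnmb, a glycoprotein of phagocytes, did not pass. Gpnmb was at 13.4 and 0 CPM in females and 0, 0.502 and 0.931 CPM in males at P7, so it was high in 1 of the 5 P7 libraries and under 1 CPM in the others.

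Of the leukocyte surface genes 4 of 5 rose. Cd53, a tetraspanin of leukocytes, rose by 2.21 (SE 0.379, adjusted p = 0.0109), and Selplg, the ligand of P-selectin, rose by 5.80 (SE 1.02, adjusted p = 0.0124). Ptprc, which encodes CD45, rose by 4.38 (SE 1.13, adjusted p = 0.0462), and Itgam, which encodes CD11b, by 5.69 (SE 1.35, adjusted p = 0.0347). Itgam, Ptprc and Selplg had at most 0.162 CPM in all 3 WT male libraries of P4, and 67.4% of the exon bases of Itgam lie also in Gm49368 on the same strand, so its counts are uncertain. Ly86, which encodes the partner MD-1 of a toll-like receptor homologue, did not pass. Aif1, the calcium-binding protein IBA1 used to stain microglia, rose by 4.23 (SE 0.752, adjusted p = 0.0124), and the secreted protein gene Olfml3 rose by 2.18 (SE 0.539, adjusted p = 0.041). In Aif1, 16.6% of the exon bases overlap Gm17705 on the opposite strand. Tmem119, a membrane protein that separates microglia from other macrophages, was at 13.4 and 35.1 CPM in females and 6.69, 15.8 and 14.8 CPM in males at P7 and had a log2 fold change of 3.20 (SE 1.22) with adjusted p = 0.148.

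Leaving out 1 library at a time kept 12 of the 20 calls in each of 11 fits, namely C1qa, C1qb, C1qc, Gpr34, Csf1r, Cx3cr1, Ctss, Cd68, Laptm5, Cd53, Selplg and Aif1. The calls of Trem2 and Olfml3 were each lost in 10 of the 11 fits. Those of P2ry12, Tyrobp and Ptprc were each lost in 9, that of Itgam in 8 and those of Fcer1g and Siglech in 3. The number of calls was 12 without the female P7 library of replicate 2, 13 without the male P7 library of replicate 3 and 23 without the male P4 library of replicate 3. DESeq2 called 25 genes higher, where it called 3.74% of all genes higher. Among 30 other microglia genes, 7 were called higher from P4 to P7, with a median log2 fold change of 2.93, among them Fcrls (2.93). Of 9 genes of border macrophages tested, edgeR called 0, with 6 at an unadjusted p under 0.05 and 6 called by DESeq2. The summed level of the 31 genes did not move alone. In WT the summed astrocyte and radial glia markers were 3466 to 6432 CPM at P4 and 8598 to 12962 CPM at P7. Gfap, the filament of reactive and white-matter astrocytes, was called higher by 2.14. The part of such changes in cell makeup in the results for the microglia genes was not tested.

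The windows around the start sites of the 31 genes were searched for GAGGAA on either strand. These are the core letters of sites bound by PU.1, the factor encoded by Spi1. The RefSeq promoter table (GRCm38.p6, 250 bases before to 50 after a start) held a window for 23 of the 31 genes. The letters were present in 14 of these 23 genes (60.9%) and in 8446 of 27025 genes overall (31.3%), and at least 2 matches stood in 4 of the 23 (17.4%) and in 5.58% of genes overall. The upstream stretches of 3 of these 4 genes are shown, up to the first base of the gene, because the genes were called from P4 to P7 and hold at least 1 match there, and capitals mark the matches. They were placed in GRCm39 by an exact match, Cd68 at chr11:69557068-69557246 on the minus strand, Ctss at chr3:95433847-95433962 on the plus strand and Itgam at chr7:127661562-127661807 on the plus strand.
Cd68: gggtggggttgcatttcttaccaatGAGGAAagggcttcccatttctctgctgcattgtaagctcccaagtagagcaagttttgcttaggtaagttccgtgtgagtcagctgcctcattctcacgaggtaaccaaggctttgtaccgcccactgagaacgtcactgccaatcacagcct
Ctss: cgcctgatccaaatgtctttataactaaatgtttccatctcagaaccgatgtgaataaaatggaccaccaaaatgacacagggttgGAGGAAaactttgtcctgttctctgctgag
Itgam: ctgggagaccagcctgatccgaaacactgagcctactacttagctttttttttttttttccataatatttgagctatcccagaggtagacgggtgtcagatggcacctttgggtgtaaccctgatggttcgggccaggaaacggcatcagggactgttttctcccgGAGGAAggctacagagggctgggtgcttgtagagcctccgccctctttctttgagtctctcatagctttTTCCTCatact
A match is a run of letters and not a measured binding site, and binding was not measured here. Whether the letters go with the rise from P4 to P7 was not tested.

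From E19 to P4 in WT, the summed level overlapped between the stages, and single genes moved in both directions. The stage cannot be told apart from the sequencing round here. Of 30 genes tested 12 were called, 6 higher and 6 lower, where 46.3% of the 18585 genes tested were called in either direction, 22.6% higher and 23.7% lower, so the number of calls itself was not above the background. The stages did not overlap for 3 of the 30 (Gpr34, C1qa and Cd68), where this held for 47.9% of all genes. The median log2 fold change was 0.15 over the 30 genes, beside 0.03 over all genes. Of the homeostatic genes tested 4 rose and 1 fell, with a median of 1.24, and of the general myeloid genes 2 rose and 5 fell, with a median of −0.33.

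P2ry12, P2ry13, Gpr34 and Olfml3 were the homeostatic genes that rose. Gpr34 was at 0.540, 0.0644, 0.0636 and 0.433 CPM in females and 0.525, 0.863, 0.497 and 0.787 CPM in males at E19, below every WT library of P4, and rose by 3.02 (SE 0.474, adjusted p = 4.53e-05). P2ry12 was at 1.56, 0, 0.318 and 0.866 CPM in females and 1.52, 1.88, 1.86 and 0.143 CPM in males at E19. It overlapped with P4 only through the low male library of replicate 3 at P4 (0.0877 CPM), and it rose by 2.99 (SE 0.909, adjusted p = 0.0089). P2ry13 rose by 3.49 (SE 0.808, adjusted p = 0.00137) and Olfml3 by 1.24 (SE 0.432, adjusted p = 0.0195).

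Cd68 fell and did not overlap. Cd68 was at 28.7, 13.3, 23.7 and 14.2 CPM in females and 18.5, 22.3, 15.4 and 23.0 CPM in males at E19 and at 3.56, 4.45 and 4.53 CPM in females and 5.38, 6.69 and 2.91 CPM in males at P4, a log2 fold change of −2.08 (SE 0.241, adjusted p = 2.21e-06). C1qa fell by 1.45 on the log2 scale (SE 0.336, adjusted p = 0.00136) and its stages did not overlap either, while its neighbours C1qb (−0.33, adjusted p = 0.113) and C1qc (0.12, adjusted p = 0.722) did not pass. Gpnmb fell by 2.45 (SE 0.737, adjusted p = 0.0083), Mpeg1 by 2.08 (SE 0.687, adjusted p = 0.0145), Ptprc by 2.91 (SE 1.08, adjusted p = 0.0263) and the homeostatic gene Selplg by 2.66 (SE 0.977, adjusted p = 0.0249). Lyz2 rose by 1.16 (SE 0.458, adjusted p = 0.0354) and Ly86 by 1.65 (SE 0.485, adjusted p = 0.00715). The calls of C1qa, P2ry12, P2ry13, Gpr34, Cd68, Gpnmb, Mpeg1 and Ly86 held in each of 14 fits that left out 1 library, and the number of calls ran from 9 to 14.

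Not all genes of the C1q locus kept a fixed ratio over the libraries. The ratio of C1qa to C1qb counts was 0.657 to 1.43 in the E19 libraries, 0.149 to 0.912 in the P4 libraries other than Cux1 KO, and 0.340 to 0.492 at P7. The homeostatic genes held 9.0% to 20.6% of the summed CPM of the 31 genes at E19, 17.8% to 43.4% at P4 and 26.0% to 31.7% at P7. The ranges of E19 and P4 overlap, and every P7 share lies above every E19 share. The E19 shares of WT were 10.3% to 16.4%, below all WT shares of P4. Antigen presentation genes moved with the stage as well, since all 4 tested (H2-Aa, H2-Ab1, H2-Eb1 and Cd74) were called lower at P4, and their summed level was 85.9 to 259 CPM at E19 and 6.6 to 52.6 CPM in the P4 libraries other than Cux1 KO.

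**Figure D4:**
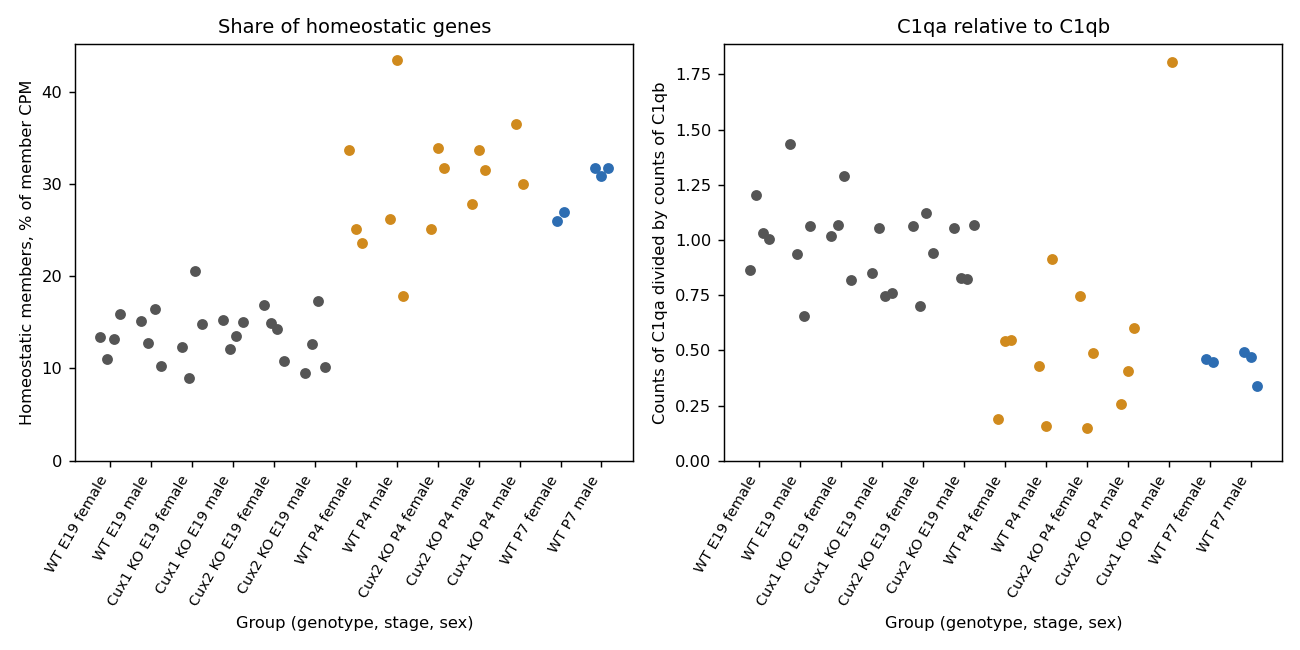
Share of the 10 homeostatic genes in the summed CPM of the 31 genes (percent, left) and ratio of C1qa to C1qb counts (right) in each library by stage and genotype; the Cux1 KO library of replicate 1 at P4 has no ratio because both genes had 1 count. The homeostatic shares at E19 (9.0% to 20.6%) lie below all P7 shares (26.0% to 31.7%), and the C1qa to C1qb ratios at E19 (0.657 to 1.43) lie above all P7 ratios (0.340 to 0.492).

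At E19, most microglia genes were lower in Cux1 KO than in WT males, but none passed the threshold after correction. Of 28 genes tested edgeR called 0, where 17 of 17362 genes (0.0979%) were called. Of the 28, 26 had a log2 fold change below 0, with a median of −0.85 beside −0.012 over all genes. At an unadjusted p under 0.05, 16 genes were lower, where 4.63% of all genes were, and the groups did not overlap for 9 genes, where this held for 2.55% of all genes in the lower direction. DESeq2 called 7 of them lower (C1qa, C1qc, Csf1r, Ctss, Laptm5, Gpnmb and Mpeg1), where it called 0.365% of all genes lower.

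Ctss had the smallest p. It was at 25.6, 24.6, 35 and 34.6 CPM in WT males and at 11.2, 19.2, 13.7 and 16.9 CPM in Cux1 KO males, so that all KO libraries were below all WT libraries, with a log2 fold change of −1.01 (SE 0.184, adjusted p = 0.0882). C1qc was at 13.1, 12.3, 15.0 and 16.4 CPM in WT males and at 6.81, 9.5, 8.69 and 7.49 CPM in Cux1 KO males, again without overlap (log2 fold change −0.84, SE 0.168, adjusted p = 0.139). Csf1r was at 15.4, 12.4, 18.7 and 12.5 CPM in WT males and at 8.34, 9.81, 9.0 and 10.1 CPM in Cux1 KO males (log2 fold change −0.70, SE 0.166, adjusted p = 0.221). The other genes without overlap were C1qa (−0.76, SE 0.199, adjusted p = 0.239), C1qb (−0.57, SE 0.178, adjusted p = 0.306), Laptm5 (−1.04, SE 0.236, adjusted p = 0.208), Gpnmb (−1.01, SE 0.263, adjusted p = 0.239), Mpeg1 (−0.80, SE 0.192, adjusted p = 0.223) and Csf3r (−2.0, SE 0.555, adjusted p = 0.271). The exceptions above 0 were Cd68 (0.24) and Lyz2 (0.28), which were named after their values were seen. Cd68, the gene with the highest level per kilobase at E19, was at 18.5, 22.3, 15.4 and 23.0 CPM in WT males and at 22.3, 27.3, 29.4 and 16.5 CPM in Cux1 KO males, with overlap. Of the antigen presentation genes 4 of 5 were lower at an unadjusted p under 0.05, and of 25 other microglia genes tested 5 were. Other cell types moved in the same fit. Of 8 oligodendrocyte lineage markers 5 were lower and 1 higher at an unadjusted p under 0.05, with a median log2 fold change of −0.46, and DESeq2 called 2 of them lower. Of 8 interneuron markers 7 were below 0, with a median of −0.22, and edgeR called 1 lower. Endothelial and mural markers had medians of −0.28 and 0.07 with none at an unadjusted p under 0.05. The part of cell makeup in the values of the microglia genes was not tested.

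**Figure D5:**
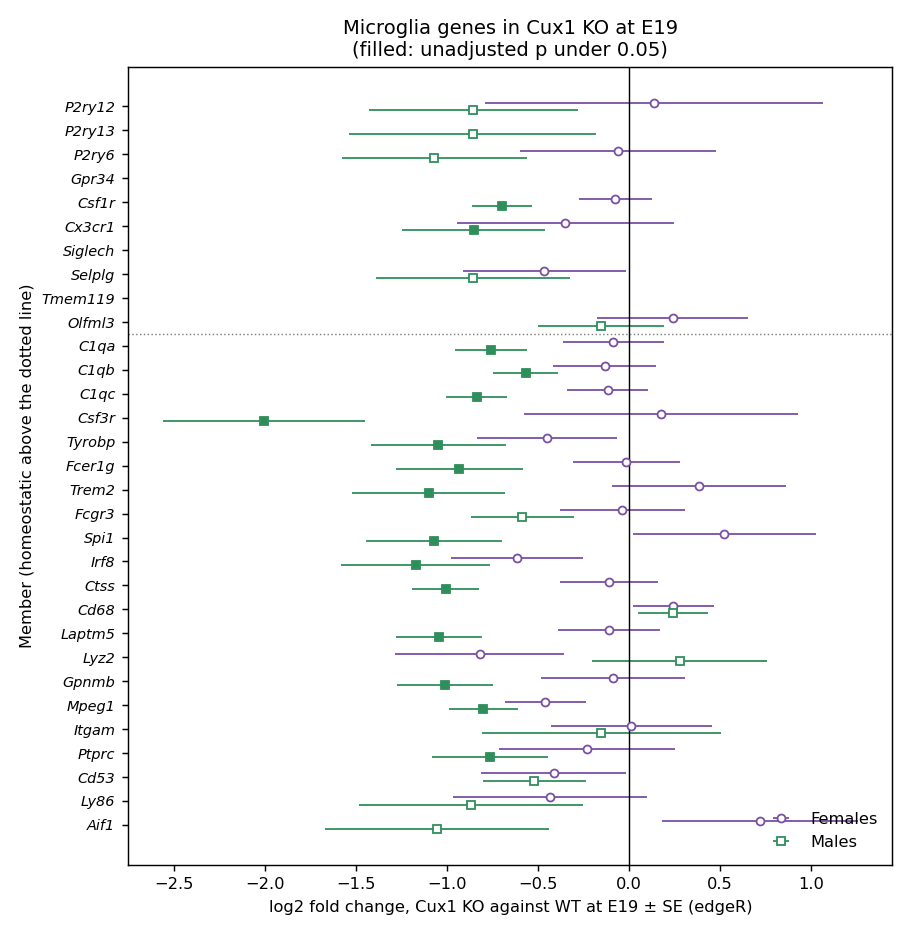
Log2 fold change of Cux1 KO against WT at E19 with its standard error for each gene tested, in males and in females; filled points had an unadjusted p under 0.05. In males 26 of 28 genes lie below 0 and 16 are filled, and in females 19 of 27 lie below 0 and none is filled.

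In females at E19 the genes were spread around 0. Of 27 genes tested edgeR called 0 (0.0576% of all genes were called), DESeq2 called 0, and none had an unadjusted p under 0.05, where 6.87% of all genes did. The median log2 fold change was −0.09. Ctss was at 25.0, 27.1, 19 and 17.5 CPM in WT females and at 20.6, 34.0, 12.9 and 14.0 CPM in Cux1 KO females, with overlap. The genes of smallest p were Mpeg1 (−0.46, SE 0.223, adjusted p = 0.732) and Lyz2 (−0.82, SE 0.463, adjusted p = 0.748). Without the Cux1 KO female library of replicate 2, 7 genes had an unadjusted p under 0.05 and edgeR called 0. The difference between the sexes was tested as an interaction of genotype and sex. For the 29 genes tested edgeR and DESeq2 called 0 (as they did over all genes), 27 of the 29 interaction terms, coded female minus male, were above 0 with a median of 0.60, and 8 had an unadjusted p under 0.05, where 3.81% of all genes did. The smallest adjusted p was 0.962, so a difference in the Cux1 KO effect between females and males was not shown for any of these genes. The term was 0.72 for C1qc (SE 0.286) and 0.90 for Ctss (SE 0.365). In place of 8 there were 2 such genes without the Cux1 KO female library of replicate 2, 3 without the Cux1 KO male library of replicate 1 and 5 without the WT male library of replicate 1 or 3.

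In the 2 Cux1 KO libraries of P4 males, most microglia genes had almost no counts. Of the 31 genes, 11 had 0 counts in both libraries, 8 had 1 to 3 counts over both, and 12 had more. The share of all genes with 0 counts in both was not taken. Some of these genes were absent or low in WT males too. Csf3r and Itgam had 0 counts in every WT male library, Spi1 had 0, 0 and 276, Selplg 1, 1 and 6, and Ptprc 9, 6 and 7. WT males of the same stage had 6 or 7 genes at or under 3 counts per library, and WT females 2 or 3. The Cux1 KO libraries also held fewer detected genes (17049 and 19115) than WT males of P4 (20844 to 22546). Markers of some other cells were low as well, and others were not. Endothelial markers summed to 0.0 and 44.6 CPM against 131 to 242 CPM in WT males, and mural cell markers to 0.3 and 53.3 CPM against 248 to 419 CPM. Border macrophage genes summed to 72.3 and 57.8 CPM against 27.9 to 71.0 CPM in WT males. Astrocyte and radial glia markers summed to 7515 and 4668 CPM against 3466 to 5029 CPM. The 30 other microglia genes summed to 88.3 and 91.1 CPM against 149 to 193 CPM. Markers of excitatory neurons summed to 2281 and 2660 CPM, above the 1078 to 1859 CPM of the other P4 libraries. Lymphocyte markers summed to 27.6 and 20.6 CPM against 3.8 to 8.1 CPM in WT males. The part of cell makeup in the results for the microglia genes was not tested. Loss of Cux1 and the CRE plasmid, which only these mice received, cannot be told apart. By the study's methods the CRE plasmid went with a CRE-dependent GFP plasmid, so the sorting label differed from that of WT as well. The paper also reports more death of Cux1 KO than of WT neurons during dissociation, which grew with maturation. Its part in these counts was not tested. Against the Cux1 KO mice of E19 the allele, the plasmids, the age and the sequencing round differ together.

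Among the genes at 0 counts in both Cux1 KO libraries, Cd68 had 299, 264 and 199 counts in WT males, Gpr34 234, 101 and 365, and Ly86 291, 119 and 1169. Set against a floor of 3 counts per library, Ly86 was at least 76.7-fold lower, Cd68 at least 45.3-fold, Mpeg1 at least 41.1-fold, Gpr34 at least 36.6-fold and Trem2 at least 36.4-fold lower. Several of these bounds rest on the WT male library of replicate 3. Mpeg1 had 3, 43 and 850 counts in WT males and Trem2 51, 73 and 634. Without that library the bound was 5.19-fold for Mpeg1, 12.6-fold for Trem2 and 37.4-fold for Ly86, while it was 30.7-fold for Gpr34 and 54.8-fold for Cd68. C1qc had 0 and 1 count against 527, 214 and 1739 counts in WT males, a ratio of WT to KO of 956 with a 95% counting interval of 172 to 37794. For Cd53 the ratio was 363 (65.0 to 14350), for Laptm5 157 (53.7 to 764) and for P2ry12 100.3 (34.2 to 487). Leaving out WT replicate 3 gave a ratio of 491 for C1qc. For P2ry12, with 639, 135 and 6 counts in WT males, the ratio was 27.5 without WT replicate 1 and 171 without WT replicate 3. The intervals cover counting error only.

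Single genes were present in one Cux1 KO library and absent in the other. In replicate 1 alone, Csf1r had 183 counts, P2ry6 138, Fcer1g 117 and Aif1 81, where replicate 2 had 0 to 2. In replicate 2 alone, C1qa had 278 counts, Olfml3 238, Irf8 215, Cx3cr1 178 and C1qb 154, where replicate 1 had 0 to 2. Tyrobp (64 and 73 counts) and Ctss (302 and 238 counts) were the genes present in both. So C1qa and C1qb were counted in a library in which C1qc had 1 count. The edgeR fit tested 24 genes and called 0, as it called 0 of 19601 genes overall. At an unadjusted p under 0.05, 12 genes were lower, where 12.3% of all genes were, and the groups did not overlap for 13 genes, where this held for 23.5% of all genes in the lower direction. The smallest adjusted p among the 24 was 0.0764 (Cd68, Cd53 and C1qc), and DESeq2 called 13 genes lower, where it called 10.6% of all genes lower. C1qb had a log2 fold change of −2.72 with all libraries and of −7.84 to −1.76 when 1 library was left out. With 2 libraries in the KO group, a fold change of Csf1r (−0.54, SE 2.12) or Cx3cr1 (−0.75, SE 1.61) is not resolved.

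In Cux2 KO mice no microglia gene passed the threshold in any sex or stage by edgeR, and DESeq2 called 2, both in P4 males. At E19, edgeR called 0 of 28 genes in females (0.0287% of all genes were called) and 0 of 28 in males (0.121%). In females DESeq2 called 0 as well, the median log2 fold change was −0.06 and none of the genes had an unadjusted p under 0.05, where 4.62% of all genes did. Those of smallest p were Itgam (0.62, SE 0.424, adjusted p = 0.977) and Ptprc (−0.49, SE 0.346, adjusted p = 0.977). In males 25 of 28 were below 0, with a median of −0.46, 5 had an unadjusted p under 0.05, all lower (3.14% of all genes were lower at that p), and 4 did not overlap (2.2% in the lower direction). These 4 were Ctss (−0.55, SE 0.171, adjusted p = 0.519), C1qc (−0.50, SE 0.183, adjusted p = 0.546), Fcer1g (−0.95, SE 0.326, adjusted p = 0.524) and Tyrobp (−1.03, SE 0.401, adjusted p = 0.569). DESeq2 called 0 there. In place of 5 genes at an unadjusted p under 0.05 there were 3 without the Cux2 KO library of replicate 1 or the WT library of replicate 1 or 4, and 9 without the Cux2 KO library of replicate 3. Since the same 4 WT male libraries served both mutants, the lower values in Cux1 KO and in Cux2 KO males are not separate evidence. The sums of the 31 genes at E19 were 171 to 219 CPM in WT males and 138 to 189 CPM in WT females.

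At P4 most microglia genes had a log2 fold change above 0 in Cux2 KO, and none passed the threshold. In females the sum of the 31 genes was 186, 169 and 592 CPM in Cux2 KO against 151, 168 and 139 CPM in WT. In males it was 199, 305 and 144 CPM against 115, 92.0 and 203 CPM. The groups of females do not overlap, by a narrow margin for 2 of the 3 libraries, and those of males overlap. The female Cux2 KO library of replicate 3 was the highest of all P4 libraries.

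Of 30 genes tested in P4 females edgeR called 0, as it called 0 of all genes, and DESeq2 called 0. Of these 28 were above 0, with a median of 1.18 beside 0.018 for all genes tested. Among them 6 were higher at an unadjusted p under 0.05 (4.56% of all genes were), and 3 did not overlap (8.22% of all genes in the higher direction). Gpr34 was at 2.34, 4.08 and 2.31 CPM in WT females and at 5.37, 7.09 and 21.7 CPM in Cux2 KO females (log2 fold change 1.96, SE 0.601, adjusted p = 0.61). Fcgr3 was at 8.12, 7.51 and 6.97 CPM in WT females and at 12.2, 10.3 and 20.2 CPM in Cux2 KO females (log2 fold change 0.92, SE 0.304, adjusted p = 0.64). Cd68 was at 3.56, 4.45 and 4.53 CPM in WT females and at 5.13, 7.44 and 19 CPM in Cux2 KO females (log2 fold change 1.33, SE 0.51, adjusted p = 0.663). These 3 genes are given because their groups do not overlap, so their separation is not a further result. Replicate 3 of Cux2 KO is the highest in each. Without that library 1 gene had an unadjusted p under 0.05, and without the Cux2 KO library of replicate 2 there were 11. The number was 2 without the WT library of replicate 3 and 3 without that of replicate 1. Markers of other cells had log2 fold changes above 0 in the same females, although edgeR called none of those given here. All 8 endothelial markers were above 0 (median log2 fold change 1.10, 4 at an unadjusted p under 0.05), as were all 6 mural cell markers (median 1.34, 4 without overlap, 2 called by DESeq2), all 8 markers of the oligodendrocyte lineage (median 0.54) and all 5 antigen presentation genes (median 2.15, 2 called by DESeq2). Their part in the values of the microglia genes was not tested.

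Of 29 genes tested in P4 males edgeR called 0, as it called 0 of all genes. Of the 29, 24 were above 0, with a median of 0.52 beside −0.004 for all genes tested. Among them 4 were higher at an unadjusted p under 0.05 (2.79% of all genes were), and 5 did not overlap (6.59% of all genes in the higher direction). Ptprc was at 0.162, 0.152 and 0.102 CPM in WT males and at 1.14, 7.29 and 1.64 CPM in Cux2 KO males (log2 fold change 4.57, SE 1.01, adjusted p = 0.336). Selplg was at 0.0180, 0.0253 and 0.0877 CPM in WT males and at 2.32, 1.17 and 0.422 CPM in Cux2 KO males (log2 fold change 4.78, SE 1.14, adjusted p = 0.37). DESeq2 called both, where it called 1.16% of all genes higher. In WT males Ptprc had 6 to 9 counts and Selplg 1 to 6 counts per library, so these changes start from levels near the floor. Cx3cr1 was at 2.32, 4.69 and 3.49 CPM in WT males and at 7.01, 29.4 and 8.39 CPM in Cux2 KO males (log2 fold change 2.09, SE 0.659, adjusted p = 0.623), and Ctss had a log2 fold change of 1.49 (SE 0.535, adjusted p = 0.75). The number of genes with an unadjusted p under 0.05 was 2 without the Cux2 KO library of replicate 2 and 7 without the WT library of replicate 3. In males all 8 endothelial markers were below 0 (median −0.48), and 2 of 5 antigen presentation genes were above 0.

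Interactions of the Cux2 genotype with sex were tested as well. At E19 edgeR and DESeq2 called 0 of the 29 genes tested (as they did over all genes), with 2 at an unadjusted p under 0.05 (3.78% of all genes). At P4 they called 0 of 31, where edgeR called 0 and DESeq2 1.24% of all genes. At P4 0 of the 31 had an unadjusted p under 0.05 (7.27% of all genes). A difference in the Cux2 KO effect between females and males was not shown.

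Between the sexes of WT, edgeR and DESeq2 called none of the 31 genes at any stage. At E19, where 0.0461% of all genes were called, edgeR tested 28 of the genes, 25 of which were lower in females, with a median female-minus-male log2 fold change of −0.39. At an unadjusted p under 0.05, 4 of the 28 were lower and 1 was higher in females (3.67% of all genes in either direction), and C1qc did not overlap (1.06% of all genes in the lower direction). C1qc was at 11.3, 11.1, 9.86 and 9.46 CPM in females against 13.1, 12.3, 15.0 and 16.4 CPM in males (log2 fold change −0.46, SE 0.159, adjusted p = 0.992). In place of 5 genes at an unadjusted p under 0.05 there were 11 without the female library of replicate 1 and 10 without the male library of replicate 2. At P4 edgeR called 0 of all 19213 genes tested, so its lack of calls there does not set these genes apart. DESeq2 called 1.11% of all genes at P4. None of 26 genes tested by edgeR at P4 had an unadjusted p under 0.05, where 7.28% of all genes did. Those of smallest p were Cx3cr1 (1.30, SE 0.562, adjusted p = 0.694) and Ctss (0.94, SE 0.511, adjusted p = 0.741). Without the male library of replicate 3 there were 4 such genes.

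At P7, where 0.0247% of all genes were called, the log2 fold change, coded female minus male, was above 0 for 30 of 31 genes, with a median of 1.23, and 7 had an unadjusted p under 0.05 (1.53% of all genes were higher at that p). The groups did not overlap for Spi1, Itgam, Ptprc and Aif1 (8.35% of all genes in the higher direction). Ptprc was at 14.9 and 24.1 CPM in females and at 1.72, 6.59 and 4.37 CPM in males (log2 fold change 2.20, SE 0.579, adjusted p = 1.00). Without the female library of replicate 2, in which the sum of the genes was 2787 CPM, 2 genes had an unadjusted p under 0.05, and without the female library of replicate 1 there were 28. The number thus depends on which of the 2 female libraries is kept. Leaving out any of the 3 male libraries left 2. Other cell types separated by sex in the same 5 libraries. All 6 mural cell markers were below 0 without overlap between the sexes (median log2 fold change −1.82, 3 called by DESeq2), all 6 erythroid genes were below 0 (median −4.39), and all 9 border macrophage genes tested were above 0 (median 1.94, 6 without overlap). Their part in the values of the microglia genes was not tested.

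The genes moved together between libraries of a group to a moderate degree. Over the 24 E19 libraries, the correlation of a gene with the mean of the other 30, in deviations from group means on the log2 scale, had a median of 0.39 and a range of −0.12 to 0.79. Over the 19 libraries of P4 and P7 the median was 0.46, the range −0.22 to 0.94, and 15 of 31 genes were above 0.5. Of genes outside the list, the 3 most like the mean of the 31 genes at E19 were Fcrls (r = 0.72), a receptor-like gene of microglia, Tent5c (0.72) and Gm49614 (0.72). Among the first 15, 3 were on the lists of other microglia genes or border macrophages, the others of these being Il10ra (0.67), the receptor for interleukin 10, and Stab1 (0.65), a scavenger receptor of macrophages. At P4 and P7 the first 3 were Susd3 (0.87), Lgmn (0.85), a lysosomal protease, and Slitrk3 (0.85), a synaptic adhesion protein of neurons, and 0 of the first 15 were on a list. The lists hold only part of the genes of microglia and macrophages, so a gene on no list may still be one of theirs. Without the 2 libraries farthest from the median, the correlations were 0.70 for Fcrls, 0.85 for Susd3, 0.77 for Lgmn and 0.86 for Slitrk3. The points of these correlations share depth and batch within a library, and they are given as descriptions.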

How the data were processed

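RNA of GFP+ cells sorted by FACS from electroporated somatosensory cortex was measured in 43 libraries, each made from 300 pg of total RNA with 60-nucleotide single-end reads. The authors aligned the reads with HISAT2 to GRCm39, masked the Y chromosome for female libraries, removed duplicated reads and counted the rest on Ensembl genes with featureCounts. The strand setting and the tool versions are not given in the sources used here. The deposited values are raw, unnormalized counts of reads on each gene, made without molecular identifiers, so intervals and the floor of 3 counts cover counting error only. All columns were used.

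Groups were compared with edgeR 4.0.16 (R 4.3.3), using TMM normalization, the filterByExpr filter and the quasi-likelihood test, fitted over all genes with only the libraries of the comparison. P-values were adjusted by Benjamini-Hochberg over all genes tested. A gene was called at an adjusted p under 0.05 with a log2 fold change beyond 0.5 in either direction in comparisons within E19 and beyond 1 in all others, and interactions at an adjusted p under 0.05. Groups do not overlap where all libraries of one group lie above all of the other. Standard errors are the absolute log2 fold change divided by the square root of the F statistic. CPM over all 43 libraries used TMM factors. Levels per kilobase used the joined length of all exons annotated for a gene in GENCODE M39, which held all 31 genes. The tests were tested on simulated counts with known changes. Alternatives were DESeq2 1.42.0 with and without its fold change prior, its size factors in edgeR, no filter, robust prior spread, one fit with every group of the stage, both sexes with sex as a covariate, no sex term between stages, no fold change threshold, a replicate block and leaving out each library in turn, and for summed levels CPM per total counts.

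The members and all gene lists were chosen with earlier results of these data known. Any of the 31 genes could be named with its levels. Fold changes with errors were printed for genes called, for those with an unadjusted p under 0.05 whose groups do not overlap, for C1qa, C1qb, C1qc, P2ry12, Cx3cr1, Csf1r, Tmem119, Ctss and Tyrobp in any comparison, and for the 2 genes of smallest p where neither condition was met. Of other lists at most 4 genes of highest count were named, and of genes alike in pattern the first 15 by Pearson correlation could be named. Neurod2, Tubb3, Slc17a7, Gja1 and Fabp7 were named as markers after their values were seen.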

Additional observations from a re-analysis of the deposited data

Results flagged for a closer look

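In the 6 groups of 4 libraries at E19, the highest or lowest library of a group stood apart from the others, by Dixon's 95% criterion, in 12 of 198 checks of a gene or of a summed level in a group, all 12 of them for genes, and chance gives about 5%. In Cux1 KO males, replicate 2 was the high one for Tyrobp (3.56 CPM, others 1.42 to 1.70), Cd53 (3.68 CPM, others 1.93 to 2.20), Ly86 (2.58 CPM, others 0.629 to 0.738) and Aif1 (1.35 CPM, others 0.227 to 0.378), and replicate 4 was the high one for Spi1 (2.33 CPM, others 0.965 to 1.16). In Cux2 KO males, Csf1r was high in replicate 3 (16.1 CPM, others 7.88 to 8.80) and Siglech was seen in replicate 2 alone (0.263 CPM). In WT females, Siglech was seen in replicate 2 alone (0.129 CPM), P2ry13 was high in replicate 4 (0.618 CPM, others 0 to 0.06), Irf8 was high in replicate 4 (3.03 CPM, others 1.86 to 2.00), and Tmem119 was at 0 CPM in replicate 3 (others 1.42 to 1.56). In WT males, Tyrobp was high in replicate 4 (6.87 CPM, others 3.14 to 3.72). The causes were not tested.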

How the results depend on the processing

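Fold changes of named genes kept their direction and their side of the threshold in 1520 recalculations, while 64 passed the threshold in the recalculation alone, 86 lost it and 14 changed sign. The summed levels moved by less than the spread between libraries under both other scalings (26 of 26 values). In Cux1 KO males at E19, where edgeR called 0 of these genes, DESeq2 called 7 without and 5 with its prior, all lower. Over all genes it called 0.688% and 0.46% in either direction. EdgeR without the filter called 3 of these genes and with the replicate block 1, all lower, where it called 91 and 45 genes over all. In Cux1 KO males at P4, against 0, DESeq2 called 13 without and 8 with its prior, where it called 15.2% and 12.5% of all genes in either direction. EdgeR with every P4 group in the fit called 10 of these genes there and 2597 genes over all. In Cux2 KO males at P4 DESeq2 without its prior called 2 (1.6% of all genes in either direction). The cause was not tested. Leaving out 1 library gave 9 to 14 calls from E19 to P4, 12 to 23 from P4 to P7 and 0 in each other comparison. For Cux1 KO males at P4 this covers only the fits that kept both KO libraries. Where an omission left 1 library in a group, that library was assumed to vary like the others. Signs changed for genes that were not called. In Cux1 KO males at P4 the omissions gave a log2 fold change of −6.84 to 0.094 for C1qa, −11.4 to 0.46 for Csf1r, −6.07 to 0.23 for Cx3cr1, −1.50 to 1.06 for Tyrobp and −0.87 to 0.72 for Ctss, and with no filter that of Ctss was −0.0023. From E19 to P4 they gave −0.22 to 0.30 for C1qc, −0.56 to 0.43 for Tyrobp and −1.06 to 1.76 for Tmem119. Library numbers are shared between groups, but same-numbered libraries deviated together at correlations of −0.165 to 0.394, and in 0 of the 8 comparisons with 3 or more pairs were all pairs over 0.1, so the numbers were not taken to pair the libraries (between the sexes at P7, with 2 pairs, they were 0.293 and 0.394). With the replicate block 19 of the 31 genes were called from P4 to P7 (331 genes over all) and 11 from E19 to P4 (9000 genes over all). With that block the log2 fold change of Tyrobp became 0.96 in Cux1 KO males at P4 and −0.14 from E19 to P4. Depth limits genes at or under 3 counts, above all in the Cux1 KO libraries of P4.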

Other observations

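Genes of immune signalling that are not on the list were also higher at P7. Of 15 genes of cytokine and immediate early responses, 6 were called higher in WT from P4 to P7, where 1.6% of all genes were. They included Zfp36 (log2 fold change 1.68), a factor that destabilizes cytokine transcripts, and the chemokine genes Ccl4 (5.55) and Ccl12 (3.65).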
